A study of Mus musculus with 36 samples.

Results

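The genes described here are 7 receptors that mark macrophages or carry their scavenging function, Adgre1, Marco, Msr1, Mrc1, Olr1, Stab1 and Cx3cr1. They were taken by symbol from both deposited expression tables, where each has 1 row among 24411 genes, and they were followed across genotype, day and culture course. The samples are RNA-seq libraries of haematopoietic stem and progenitor cells (HSPCs), taken from the bone marrow of mice and differentiated in culture. The study asked how loss of Taf1, the largest subunit of the general transcription factor TFIID, changes the activation of differentiation genes.

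The Taf1 knockout (KO) libraries came from a conditional knockout mouse model and the control libraries from mice labelled WT. Both genotypes were sampled at day 0 as HSPCs and at day 3 after growth with SCF and IL-3. The macrophage course then had GM-CSF with M-CSF up to day 5 and M-CSF alone up to day 7, while the granulocyte course had SCF, IL-3 and G-CSF up to day 5 and G-CSF alone up to day 7. Every cytokine was at 50 ng/ml, and the starting medium held 20% horse serum. The 36 libraries form 12 groups of 3. Both courses share the libraries of days 0 and 3, since the cultures were divided after day 3. The driver and induction of the deletion, the deleted part of Taf1 and the ages of the mice are details that the sources used here do not give. The labels do not say that replicates came from separate mice, so p-values measure the spread between these libraries, which may be technical.

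Scavenger receptors bind modified lipoproteins, bacterial surfaces, damaged proteins and dying cells, and carry them into the cell for breakdown in lysosomes. They belong to several unrelated protein families that share polyanionic ligands. Macrophages carry many of them at once, and the set changes with tissue and with stage, so the same genes serve as markers of macrophage identity. M-CSF is the main growth factor of macrophages and G-CSF that of neutrophils.

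Promoter sequences show what these genes, which lie on 7 different chromosomes, share by sequence. RefSeq promoters on GRCm38.p6 were matched for 5 of the 7 genes (Marco, Mrc1, Olr1, Stab1 and Cx3cr1). In the 250 bases before the start site, GAGGAA, a core sequence bound by the myeloid factor PU.1, was found on either strand in 4 of the 5. Of 32817 promoters of the same length, 23.3% held it. The 4 are printed on the strand of the gene, with GAGGAA or its reverse complement TTCCTC in capitals. TGAGTCA, also in capitals, is a match to the AP-1 motif TGANTCA. These are the Marco region chr1:120505025-120505274, minus strand, the Mrc1 region chr2:14229164-14229413, plus strand, the Olr1 region chr6:129507166-129507415, minus strand, and the Stab1 region chr14:31168642-31168891, minus strand.
Marco: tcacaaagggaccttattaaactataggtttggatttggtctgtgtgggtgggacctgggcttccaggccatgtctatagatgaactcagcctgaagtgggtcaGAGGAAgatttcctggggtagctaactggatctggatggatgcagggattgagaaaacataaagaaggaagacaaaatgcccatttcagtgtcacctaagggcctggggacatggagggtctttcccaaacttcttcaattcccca
Mrc1: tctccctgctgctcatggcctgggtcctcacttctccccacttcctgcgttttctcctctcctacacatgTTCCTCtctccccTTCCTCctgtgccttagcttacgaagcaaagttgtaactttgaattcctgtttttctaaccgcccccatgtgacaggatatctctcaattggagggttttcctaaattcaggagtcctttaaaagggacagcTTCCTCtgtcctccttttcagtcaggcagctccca
Olr1: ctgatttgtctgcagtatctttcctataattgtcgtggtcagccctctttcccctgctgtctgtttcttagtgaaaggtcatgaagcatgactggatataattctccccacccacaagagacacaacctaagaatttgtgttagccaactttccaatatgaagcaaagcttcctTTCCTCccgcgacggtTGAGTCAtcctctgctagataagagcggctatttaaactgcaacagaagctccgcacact
Stab1: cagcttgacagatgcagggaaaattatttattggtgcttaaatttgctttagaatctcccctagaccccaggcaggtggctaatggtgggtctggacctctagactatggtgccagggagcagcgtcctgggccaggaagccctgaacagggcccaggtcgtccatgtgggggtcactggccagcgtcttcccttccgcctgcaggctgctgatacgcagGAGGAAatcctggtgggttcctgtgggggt
Mrc1 held 3 copies, starting at positions -180, -167 and -35 from the start site, and the others 1 each, at -146 in Marco, -76 in Olr1 and -30 in Stab1. The AP-1 motif was found in Olr1 alone, at -60, and in 6.75% of all promoters, and it did not overlap the PU.1 core there. TATAAA (in 12.4% of all promoters), the C/EBP half-site pair TTGCNNAA (9.57%) and the E-box CACGTG (6.02%), searched on both strands, were not in these 5 windows. A match is a description of the letters, not a bound site.

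The values are TPM, a share of all transcripts corrected for transcript length, so levels are per length and can be set beside each other across genes. Between 10289 and 11226 genes reached 1 TPM in a library, and read depth is unknown. Taf1 averaged 6.11 to 9.34 TPM in the 6 KO groups and 10.7 to 14.2 TPM in the 6 control groups. Its difference passed the test at every stage apart from day 3, where the level was 9.34 ± 0.85 TPM in KO cells and 10.7 ± 0.94 TPM in control cells (SD, n = 3 each) and the libraries overlapped. Control replicate 1 stood apart at day 5 in both courses, with 4.93% of its TPM in S100a8 and S100a9 in macrophage culture and 5.49% in granulocyte culture, against 13.9% to 14.5% in the other control libraries of that day. KO replicate 1 was also lowest at day 5, at 17.8% and 17.7%, against 20.8% to 23.4% in the other KO libraries. At day 3 the sum of 8 monocyte markers was 29100 TPM in KO and 35580 TPM in control replicate 1. The other day 3 libraries held 14850 to 20980 TPM. At day 7 of the granulocyte course KO replicate 1 had the lowest such sum of its group, 19600 TPM. The course labels were set against marker genes. At day 7 14 neutrophil markers summed to 28830 to 43480 TPM in KO and 37410 to 75470 TPM in control libraries of the macrophage course. In the granulocyte course they summed to 153100 to 175100 TPM in KO and 122800 to 172700 TPM in control libraries. The 21 other macrophage genes of a fixed list summed to 21750 to 36220 TPM in KO and 15900 to 17280 TPM in control libraries of the macrophage course at day 7, and to 14900 to 17230 TPM in KO and 19660 to 25430 TPM in control libraries of the granulocyte course. A few genes carried these sums. Lyz2, which neutrophils express too, reached 34946 TPM in the macrophage list and the next gene, Sirpa, 546 TPM. S100a8 and S100a9 reached 128565 and 106848 TPM, and no other neutrophil marker passed 8155 TPM. By gene, 9 of the 14 neutrophil markers were lower and 0 higher in the macrophage than in the granulocyte course at day 7, in KO and in control cells. Of 19 other macrophage genes tested, 9 were higher and 1 lower in the macrophage course in KO cells, and 3 higher and 4 lower in control cells (3 and 6 after scaling). Among all genes tested, 35.3% were higher and 14.9% lower there in KO cells (25.7% and 21.9% after scaling). In control cells the shares were 34% and 9.81% (19.1% and 16.2% after scaling).

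At days 3 and 5 those of the 7 genes whose difference passed the test were all lower in KO than in control cells. At day 7 the direction differed between genes. Msr1, Mrc1 and Adgre1, which reach the highest levels of the 7, were lower in KO cells at day 3 and at day 5 of both courses. At day 7 Mrc1 and Olr1 were higher in KO cells in both courses, and Stab1 was higher in the macrophage course and lower in the granulocyte course. Marco was lower in KO cells at day 5 and day 7 of both courses. These are bulk libraries, so fewer cells that carry a receptor and less of its RNA per cell cannot be told apart.

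All 7 genes passed the filter on low values (at least 1 TPM in at least 3 libraries), Marco with 14 libraries at 1 TPM or more. In the macrophage course these were the control libraries of days 5 and 7 and KO day 7 replicates 1 and 3. In the granulocyte course they were control libraries alone, and no KO library passed 0.55 TPM. Marco was thus kept in that fit only through the groups where it is high, which bears on its KO over control tests there. Differences were tested with limma on log2(TPM + 1), and log2 differences below are on that scale, which understates changes of low genes. Genes with an adjusted p under 0.05, over all genes tested, count as passing. At day 0, 2 of the 7 genes were lower in KO cells and 0 higher, beside 10.2% lower and 13.1% higher among all genes tested (14.8% and 11% after median-of-ratios scaling). At day 3, 4 were lower and 0 higher, beside 26.7% lower and 26.5% higher. At day 5 of the macrophage course 4 were lower and 0 higher, beside 37.9% lower and 5.11% higher. After scaling 3 were lower and 0 higher there, beside 19.7% and 18.7%. At day 5 of the granulocyte course 4 were lower and 0 higher, beside 22.8% lower and 9.2% higher (22.2% and 18% after scaling). By day 7 of the macrophage course 1 was lower and 3 were higher, beside 12.5% lower and 27.4% higher (21.5% and 18.6% after scaling). For day 7 of the granulocyte course 5 were lower and 2 higher, beside 12% lower and 32.1% higher (24.6% and 20.4% after scaling). The median log2 difference of the 7 genes was -0.04, -0.70, -0.87 and 0.29 at day 0, day 3 and days 5 and 7 of the macrophage course, and -1.29 and -0.93 at days 5 and 7 of the granulocyte course. Over all genes tested the medians were 0.06, -0.01, -0.23 and 0.12, then -0.09 and 0.17. Scaling moved the median of all genes to -0.02 at day 5 and -0.01 at day 7 of the macrophage course and to -0.02 at day 7 of the granulocyte course. Under it the genes kept their directions at the 6 stages, apart from Olr1 at day 5 of the macrophage course, which did not pass in either form (-0.22 as deposited, 0.01 scaled).

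**Figure D1:**
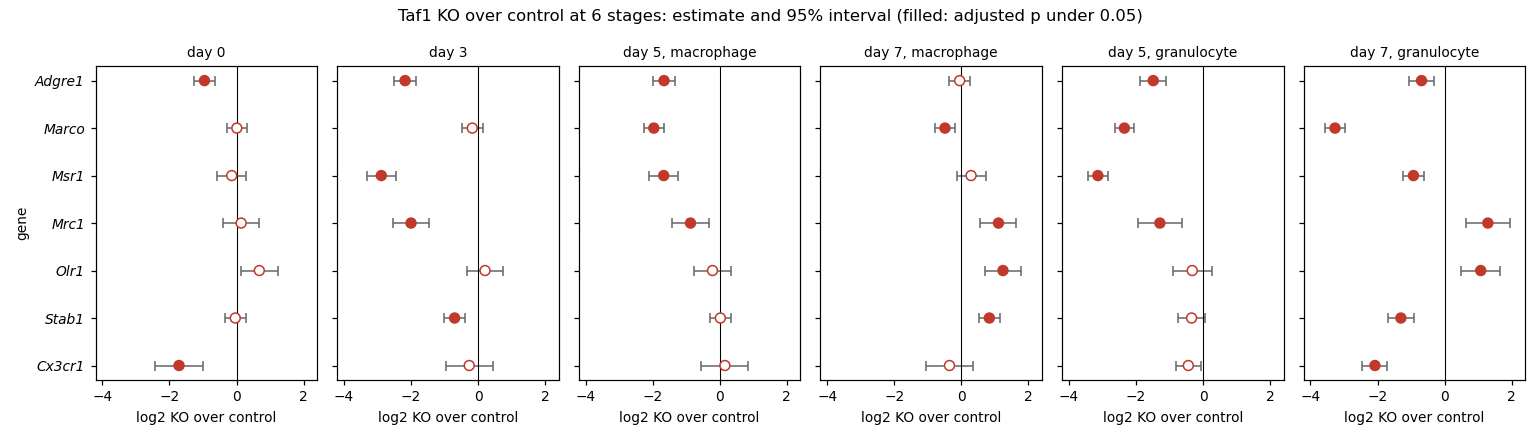
Log2 difference of Taf1 KO over control on the log2(TPM + 1) scale for the 7 genes (rows) at the 6 stages (panels), with points for the estimate, bars for the 95% interval and filled points for an adjusted p under 0.05. Points sit left of 0 for Adgre1, Msr1 and Mrc1 at day 3 and day 5, and at day 7 Mrc1 and Olr1 sit right of 0 in both courses.

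**Figure D2:**
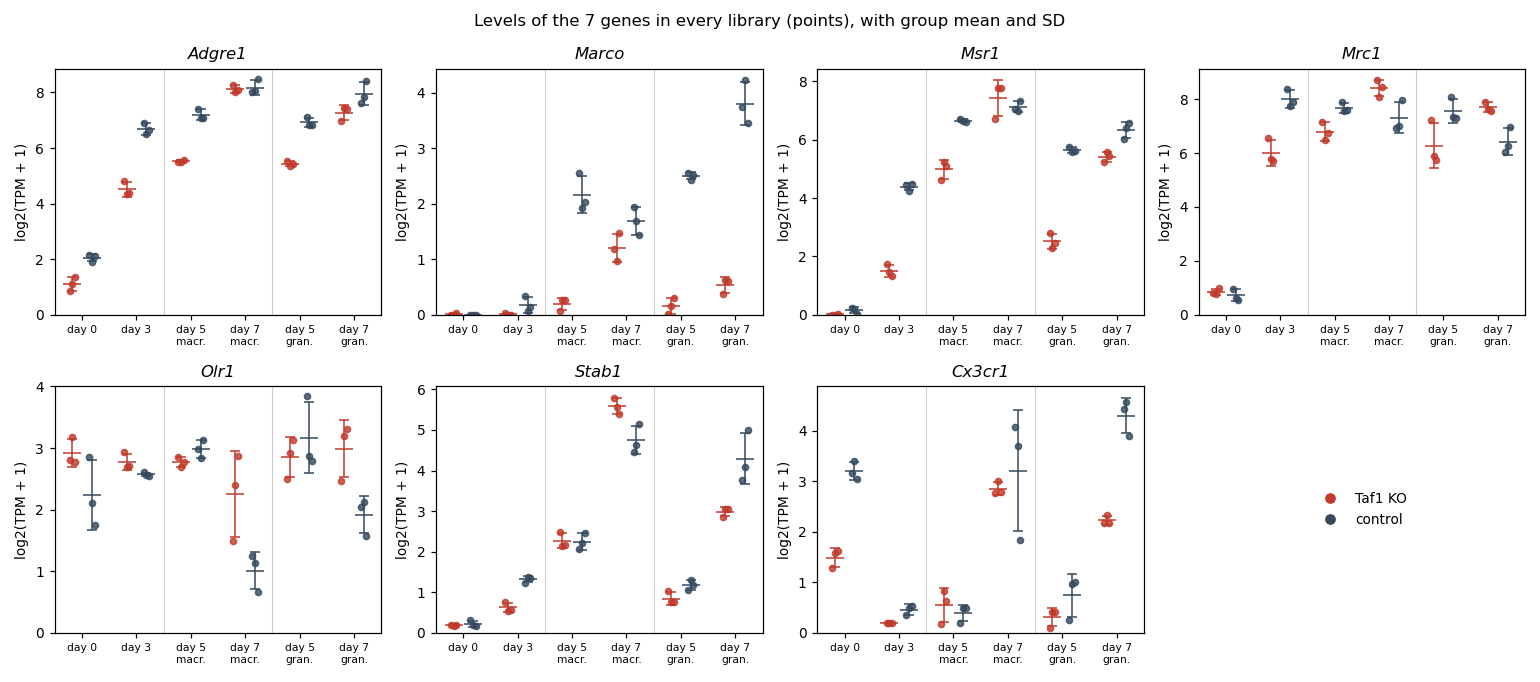
Level of each gene in every library as log2(TPM + 1) (points), by stage, KO (red) left of control (dark), with the mean and SD of the 3 libraries of a group. Mrc1 is near 0 to 1 TPM at day 0 and at 51.3 TPM or more in all later libraries, while Marco reaches its highest values in control libraries of the granulocyte course at day 7.

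Adgre1 encodes F4/80, an adhesion G protein-coupled receptor used as the classical surface marker of mouse macrophages. GENCODE M21 places it on chromosome 17 at 57358691 to 57483527 of mm10, plus strand. At day 0 it had 0.81, 1.14 and 1.55 TPM in KO libraries, against 3.47, 2.74 and 3.31 TPM in control libraries. At day 3 it had 27.4, 19.2 and 19.7 TPM in KO libraries, against 119.84, 90.4 and 98.7 TPM in control libraries. The groups did not overlap at either day, and Adgre1 was lower in KO cells by a log2 difference of -0.96 (SE 0.15, adjusted p = 0.00013) at day 0 and of -2.18 (SE 0.15, adjusted p = 2.18e-09) at day 3. At day 5 KO libraries held 44.8, 44.5 and 46.6 TPM in the macrophage course, against 170.57, 134.71 and 133.74 TPM in control libraries. In the granulocyte course of that day they held 45.8, 40.0 and 41.9 TPM, against 137.48, 112.27 and 113.66 TPM in control libraries. Again no library overlapped, with log2 differences of -1.66 (adjusted p = 1.33e-07) and -1.48 (adjusted p = 4.02e-06). By day 7 the macrophage course had 309.95, 255.6 and 271.9 TPM in KO libraries, against 255.88, 263.04 and 356.04 TPM in control libraries. These groups overlapped, and the log2 difference was -0.05 (95% interval -0.37 to 0.27, adjusted p = 0.82). In the granulocyte course at day 7 it had 124.0, 171.16 and 170.41 TPM in KO libraries, against 196.32, 225.83 and 343.79 TPM in control libraries. That is lower in KO cells by a log2 difference of -0.69 (SE 0.18, adjusted p = 0.0051), without overlap. The KO effect was larger downward at day 3 than at day 0 by -1.22 (adjusted p = 0.00039) on the log2(TPM + 1) scale, which understates differences at the low day 0 levels. The ratio of control to KO means was 2.72 at day 0 and 4.66 at day 3. Between day 3 and day 7 the KO effect moved upward by 2.13 in the macrophage course (adjusted p = 7.83e-07) and by 1.49 in the granulocyte course (adjusted p = 0.00022). The differences of both courses share their day 3 libraries. Between days 5 and 7 of the macrophage course Adgre1 rose by a log2 difference of 2.59 in KO cells and of 0.98 in control cells.

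Msr1 encodes the class A scavenger receptor SR-A1, a collagenous trimer that takes up modified low-density lipoprotein and bacterial components. It lies on chromosome 8 at 39581685 to 39642673, minus strand. It was listed at 0, 0 and 0.03 TPM in KO libraries at day 0, against 0.18, 0.14 and 0.03 TPM in control libraries. At day 3 KO libraries held 2.32, 1.76 and 1.49 TPM, against 20.9, 18.0 and 21.2 TPM in control libraries. At day 0 both genotypes were near the bottom of the scale. At day 3 the groups were far apart, with Msr1 lower in KO cells by a log2 difference of -2.89 (SE 0.21, adjusted p = 2.22e-09). At day 5 of the macrophage course the levels were 23.4, 36.7 and 33.4 TPM in KO libraries, against 103.57, 98.6 and 97.3 TPM in control libraries. The granulocyte course had 5.99, 3.93 and 4.49 TPM in KO libraries, against 53.4, 47.2 and 47.8 TPM in control libraries. No library overlapped, and Msr1 was lower in KO cells by -1.67 (SE 0.21, adjusted p = 3.64e-06) in the macrophage course and by -3.13 (SE 0.14, adjusted p = 5.64e-12) in the granulocyte course. On day 7 of the macrophage course it had 103.16, 219.86 and 215.65 TPM in KO libraries, against 133.19, 124.6 and 161.04 TPM in control libraries. KO replicate 1 was the lowest of all 6 and the other two KO libraries the highest, so the groups overlapped. The log2 difference was 0.29 (95% interval -0.14 to 0.72, adjusted p = 0.278), and 0.65 (adjusted p = 0.0023) without KO replicate 1. The day 7 granulocyte course had 36.4, 46.6 and 42.3 TPM in KO libraries, against 64.6, 84.4 and 94.0 TPM in control libraries. There it was lower in KO cells by -0.93 (SE 0.14, adjusted p = 4.08e-05), without overlap. The KO effect moved upward between day 3 and day 7 by 3.18 in the macrophage course and by 1.957 in the granulocyte course, with adjusted p of 2.17e-07 and 5.37e-07.

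Marco encodes the macrophage receptor with collagenous structure, a class A scavenger receptor that binds bacteria and particles. Its gene is on chromosome 1 at 120474538 to 120505024, minus strand. It was listed at 0 in 7 of 36 libraries, among them all 3 control libraries at day 0, and did not pass 0.27 TPM in any library of day 0 or day 3. At day 5 of the macrophage course it had 0.05, 0.20 and 0.20 TPM in KO libraries, against 4.85, 2.78 and 3.08 TPM in control libraries. The granulocyte course had 0.01, 0.11 and 0.24 TPM in KO libraries, against 4.90, 4.41 and 4.70 TPM in control libraries. The KO libraries thus stayed at or below 0.24 TPM, and Marco was lower in KO cells by log2 differences of -1.97 (SE 0.15, adjusted p = 8.25e-09) and -2.34 (SE 0.14, adjusted p = 2.29e-10). Day 7 of the granulocyte course gave 0.30, 0.55 and 0.52 TPM in KO libraries, against 12.4, 17.7 and 9.93 TPM in control libraries. The groups were far apart, with a difference on the log2(TPM + 1) scale of -3.27 (SE 0.14, adjusted p = 6.05e-13). Day 7 of the macrophage course gave 1.26, 0.96 and 1.78 TPM in KO libraries, against 2.86, 2.24 and 1.72 TPM in control libraries. These overlapped by 1 library each way, and the log2 difference of -0.49 (SE 0.15, adjusted p = 0.012) lost its call without KO replicate 2 (-0.37, adjusted p = 0.083) or control replicate 1 (-0.36, adjusted p = 0.088). It also lost it with a pseudocount of 0.1 TPM (adjusted p = 0.079) and with those 2 groups fitted alone (adjusted p = 0.068). The KO effect differed between the courses at day 7 by 2.78 (SE 0.26, adjusted p = 2.65e-06). On the log2(TPM + 1) scale it moved further down between day 3 and day 7 in the granulocyte course by -3.09 (adjusted p = 3.98e-09). That scale holds differences near 0 at the day 3 levels of Marco. The ratio of control to KO means was 21 at day 3, with KO values near 0, and 29.2 at day 7 of that course.

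Olr1 encodes LOX-1, a C-type lectin-like receptor for oxidised low-density lipoprotein. It is located on chromosome 6 at 129485244 to 129507165, minus strand. It stayed between 0.58 and 13.3 TPM in all 36 libraries, the narrowest span of the 7 genes as a ratio. At day 0 it had 5.96, 8.03 and 5.85 TPM in KO libraries, against 6.21, 3.32 and 2.36 TPM in control libraries. Control replicate 1 lay among the KO values, and the log2 difference of 0.68 (SE 0.26, adjusted p = 0.067) passed without it (0.99, adjusted p = 0.011). At day 3 and at day 5 the differences did not pass, at 0.21 at day 3, -0.22 at day 5 of the macrophage course and -0.32 at day 5 of the granulocyte course. At day 7 of the macrophage course Olr1 had 1.81, 4.25 and 6.29 TPM in KO libraries, against 1.36, 1.19 and 0.58 TPM in control libraries. The granulocyte course at that day had 4.51, 8.21 and 8.92 TPM in KO libraries, against 3.13, 3.38 and 1.97 TPM in control libraries. Neither pair overlapped, and Olr1 was higher in KO cells by 1.24 (SE 0.26, adjusted p = 0.001) and 1.08 (SE 0.28, adjusted p = 0.0041). Control cells had 1.04 ± 0.41 TPM at day 7 and 6.97 ± 0.82 TPM at day 5 of the macrophage course (SD, n = 3 each), a fall of the log2 value by 1.98 (adjusted p = 4.31e-06). In KO cells that step was -0.52 and did not pass (adjusted p = 0.085), though it passed without KO day 7 replicate 3 (-0.83, adjusted p = 0.0095) and was -0.14 (adjusted p = 0.6) without KO day 7 replicate 1. The change in KO effect between day 3 and day 7 was 1.03 in the macrophage course (SE 0.37, adjusted p = 0.036).

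Mrc1 encodes CD206, the mannose receptor, a C-type lectin that clears glycoproteins and collagen fragments. It lies on chromosome 2 at 14229392 to 14332057, plus strand, and holds the microRNA gene Mir511 on the same strand. At day 0 all 6 libraries were between 0.46 and 0.99 TPM. At day 3 it had 93.8, 53.7 and 51.3 TPM in KO libraries, against 333.34, 216.37 and 237.88 TPM in control libraries. On the log2(TPM + 1) scale this was the steepest rise from day 0 of the 7 genes in both genotypes, 5.16 in KO cells and 7.30 in control cells. By ratio of means Msr1 rose more in KO cells, 185.7 against 81.1, from a day 0 mean of 0.01 TPM. Mrc1 was lower in KO cells at day 3 by -2.00 (SE 0.26, adjusted p = 2.6e-06), without overlap. At day 5 of the macrophage course it had 142.89, 89.1 and 105.19 TPM in KO libraries, against 234.38, 186.18 and 190.46 TPM in control libraries. The granulocyte course had 148.19, 57.9 and 52.5 TPM in KO libraries, against 268.02, 159.62 and 156.54 TPM in control libraries. Replicate 1 was highest in all 4 groups. Mrc1 was lower in KO cells by -0.87 (SE 0.26, adjusted p = 0.01) and -1.29 (SE 0.32, adjusted p = 0.004). The call in the macrophage course was lost without KO replicate 2 (-0.72, adjusted p = 0.056) and after scaling (-0.61, adjusted p = 0.085), and the call in the granulocyte course with its groups fitted alone (adjusted p = 0.071). At day 7 the order turned. The macrophage course had 415.53, 270.98 and 349.93 TPM in KO libraries, against 121.85, 128.37 and 250.17 TPM in control libraries. The granulocyte course had 239.1, 200 and 190.17 TPM in KO libraries, against 65.2, 74.8 and 125.12 TPM in control libraries. No KO library overlapped a control library, and Mrc1 was higher in KO cells by 1.11 (SE 0.26, adjusted p = 0.0021) and 1.29 (SE 0.32, adjusted p = 0.0029). The KO effect changed between day 3 and day 7 by 3.11 (adjusted p = 3.36e-06) in the macrophage course and by 3.29 (adjusted p = 1.55e-05) in the granulocyte course.

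Stab1 encodes stabilin-1, a large multidomain scavenger receptor of tissue macrophages and of sinusoidal endothelium. Its gene, on chromosome 14 at 31139013 to 31168641, minus strand, overlaps Nt5dc2 on the opposite strand, and the sources used here do not give the strand setting of the counting. At day 0 no library passed 0.24 TPM. At day 3 it had 0.69, 0.46 and 0.48 TPM in KO libraries, against 1.35, 1.61 and 1.56 TPM in control libraries. The groups did not overlap, and Stab1 was lower in KO cells by -0.70 (SE 0.15, adjusted p = 0.00048). With a pseudocount of 5 TPM that call was lost (-0.23, adjusted p = 0.079). At day 5 of the macrophage course it had 4.58, 3.43 and 3.49 TPM in KO libraries, against 3.16, 3.66 and 4.52 TPM in control libraries, which overlapped. The granulocyte course had 1.04, 0.68 and 0.68 TPM in KO libraries, against 1.09, 1.48 and 1.26 TPM in control libraries. Neither day 5 difference passed, at 0.02 (95% interval -0.29 to 0.32) and -0.34 (95% interval -0.74 to 0.05). At day 7 of the macrophage course it had 54.4, 46.4 and 41.3 TPM in KO libraries, against 21.1, 23.9 and 34.6 TPM in control libraries. The granulocyte course at that day had 6.21, 7.35 and 7.26 TPM in KO libraries, against 12.7, 16.1 and 30.9 TPM in control libraries. The direction therefore differed by course, higher in KO cells by 0.83 (SE 0.15, adjusted p = 0.00019) in the macrophage course and lower by -1.30 (SE 0.19, adjusted p = 1.98e-05) in the granulocyte course. The difference between those 2 effects, 2.14 (SE 0.32, adjusted p = 0.00044), passed as well. Of the 7 endothelial markers, Pecam1, which myeloid cells carry too, had 6.21 to 161.64 TPM and carried most of their sum at day 7. The others did not pass 3.82 TPM (Kdr), 2.87 TPM (Tek), 2.12 TPM (Emcn, at 0 in 19 of 36 libraries), 1.84 TPM (Lyve1), 0.41 TPM (Stab2) and 0.11 TPM (Cdh5). The 7 summed to 8.61 to 15.4 TPM in KO and 26.5 to 35.3 TPM in control libraries at day 7 of the macrophage course. In the granulocyte course of that day they summed to 60.6 to 102.5 TPM in KO and 38.4 to 39.1 TPM in control libraries.

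Cx3cr1 encodes the receptor of the chemokine CX3CL1 (fractalkine), carried by monocytes and by many tissue macrophages. GENCODE M21 places it on chromosome 9 at 119901616 to 120069879, minus strand, where its span overlaps 9 other genes, so that reads could be split between them. It was present in HSPCs, with 1.42, 1.99 and 2.07 TPM in KO libraries at day 0, against 7.93, 9.57 and 7.30 TPM in control libraries. KO cells were lower there by -1.71 (SE 0.34, adjusted p = 0.00095), without overlap. By day 3 it had fallen in both genotypes, to 0.14, 0.15 and 0.14 TPM in KO libraries and 0.27, 0.41 and 0.45 TPM in control libraries. At days 3 and 5 no library passed 1.02 TPM, and the log2 differences of KO over control were -0.27 at day 3, 0.15 at day 5 of the macrophage course and -0.44 at day 5 of the granulocyte course, none of which passed. The difference at day 5 of the granulocyte course passed without control replicate 1 (-0.68, adjusted p = 0.003) and with a pseudocount of 0.1 TPM (adjusted p = 0.027). At day 7 of the granulocyte course Cx3cr1 had 3.49, 4.05 and 3.54 TPM in KO libraries, against 20.6, 22.8 and 14.04 TPM in control libraries. It was lower in KO cells by -2.08 (SE 0.18, adjusted p = 3.79e-08), without overlap. The macrophage course at day 7 had 5.86, 7.06 and 5.90 TPM in KO libraries, against 16, 12.1 and 2.59 TPM in control libraries. Control replicate 3 lay below all KO libraries and the other controls above them. The log2 difference was -0.35 (95% interval -1.06 to 0.35, adjusted p = 0.426), and -1.04 (adjusted p = 8.3e-05) without control replicate 3. The same control library held 3.31% of its TPM in S100a8 and S100a9, against 6.27% and 6.46% in the other two. It also had the highest Adgre1, Msr1, Mrc1 and Stab1 and the lowest Marco and Olr1 of its group.

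The effect of Taf1 loss was compared between days with interaction terms. For day 3 over day 0 in KO cells, 5 of the 7 genes passed, beside 58.8% of all genes. Between day 0 and day 3 the KO effect changed for 5 of the 7 genes, 4 downward and 1 upward, beside 17.3% downward and 15% upward among all genes tested. Mrc1 (-2.14, adjusted p = 0.00025), Msr1 (-2.74, adjusted p = 2.04e-06), Adgre1 and Stab1 (-0.67, adjusted p = 0.019) moved downward and Cx3cr1 (1.45, adjusted p = 0.025) upward. At day 0 Msr1, Mrc1 and Stab1 did not pass 0.18, 0.99 and 0.24 TPM, where the log2(TPM + 1) scale holds differences near 0. The ratio of control to KO means at days 0 and 3 was 11.7 and 10.8 for Msr1, with KO values near 0 at day 0. It was 0.81 and 3.96 for Mrc1, 1.22 and 2.77 for Stab1, and 2.72 and 4.66 for Adgre1. The Cx3cr1 term, whose level was under 0.5 TPM at day 3 in all libraries, was lost with a pseudocount of 0.1 TPM (adjusted p = 0.207), without KO day 0 replicate 1 (adjusted p = 0.053), and without control day 0 replicate 2 (adjusted p = 0.058) or control day 3 replicate 1 (adjusted p = 0.053). Between day 3 and day 7 it moved upward for 5 of the 7 genes in the macrophage course and downward for 0, beside 21.8% upward and 13.4% downward among all genes (20% and 22.2% after scaling). In the granulocyte course 3 moved upward and 2 downward, beside 22.3% upward and 11.4% downward (19.6% and 24.4% after scaling). Adgre1, Msr1 and Mrc1 moved upward in both courses. Marco and Cx3cr1 (-1.81, adjusted p = 1.94e-05) moved downward in the granulocyte course, and the Cx3cr1 term missed the threshold there with a pseudocount of 0.1 TPM (adjusted p = 0.061). Both genes were under 0.5 TPM at day 3 in all libraries. The ratio of control to KO means at days 3 and 7 of that course was 21 and 29.2 for Marco. For Cx3cr1 it was 2.63 and 5.19. Stab1 moved upward in the macrophage course (1.54, adjusted p = 1.77e-05) and did not pass in the granulocyte course (-0.60, adjusted p = 0.087), where it passed after scaling (-0.81, adjusted p = 0.011), with a pseudocount of 5 TPM (-0.76, adjusted p = 0.0067) and without control day 7 replicate 1 (-0.86, adjusted p = 0.01). The Olr1 term of the macrophage course was lost when any 1 of 8 libraries was left out, with adjusted p up to 0.123 (without KO day 7 replicate 3), and also with a pseudocount of 5 TPM (adjusted p = 0.096), without the filter (adjusted p = 0.06) or all 36 libraries in 1 fit (adjusted p = 0.056).

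The courses were compared within genotype at days 5 and 7, with replicate numbers as pairs where that changes a call. Msr1 and Stab1 were higher in the macrophage than in the granulocyte course at day 5 in both genotypes. These were 2 of the 7 genes in each, beside 3.21% higher and 14.9% lower among all genes in KO cells (9.73% and 6.96% after scaling), and 0.961% higher and 2.05% lower in control cells (1.82% and 2.52% after scaling). The log2 difference of Msr1 was 2.46 (adjusted p = 6.89e-07) in KO cells and 0.9998 (adjusted p = 0.016) in control cells, and that of Stab1 was 1.42 (adjusted p = 0.00025) in KO cells and 1.06 (adjusted p = 0.01) in control cells. The calls in control cells were lost when single libraries were left out, with the number of genes called between 0 and 2 (0 without control macrophage replicate 3). With replicate pairs Mrc1 also passed in KO cells (0.52, adjusted p = 0.018). The KO effects themselves did not differ between the courses at day 5 for any of the 7 genes by limma's test, beside 0.251% of all genes, and Msr1 had the lowest p of them (1.46, adjusted p = 0.057). It passed with replicate pairs (adjusted p = 0.015), after scaling (adjusted p = 0.0075), with all 36 libraries in 1 fit (adjusted p = 0.011), with the 4 groups alone (adjusted p = 0.039) and with a pseudocount of 0.1 TPM (adjusted p = 0.049). It was the only 1 of the 7 with an unadjusted p under 0.05 (0.0002).

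The same comparison was made at day 7. In KO cells Adgre1 (0.85, adjusted p = 0.00051), Marco (0.67, adjusted p = 0.0058), Msr1 (2.01, adjusted p = 1.02e-06) and Stab1 (2.60, adjusted p = 5.28e-08) were higher in the macrophage course. These were 4 of the 7 genes, with 0 lower, beside 35.3% higher and 14.9% lower among all genes. After scaling 4 were higher and 1 lower, beside 25.7% and 21.9%. With replicate pairs 7 of the 7 passed, Mrc1 (0.70, adjusted p = 0.0015) and Cx3cr1 (0.63, adjusted p = 0.027) higher and Olr1 (-0.74, adjusted p = 0.0043) lower. In control cells Msr1 (0.79, adjusted p = 0.0087) and Mrc1 (0.89, adjusted p = 0.044) were higher in the macrophage course, and Marco (-2.11, adjusted p = 1.46e-07), Olr1 (-0.91, adjusted p = 0.024) and Cx3cr1 (-1.09, adjusted p = 0.022) were lower there. These 2 higher and 3 lower genes stand beside 34% higher and 9.81% lower among all genes. After scaling 1 was higher and 3 lower, beside 19.1% and 16.2%. With replicate pairs Stab1 (0.46, adjusted p = 0.0047) was also higher. Marco averaged 2.27 ± 0.57 TPM in the macrophage course and 13.3 ± 3.97 TPM in the granulocyte course of control cells (SD, n = 3 each), and in KO cells 1.33 ± 0.41 and 0.457 ± 0.14 TPM (SD, n = 3 each). Of the calls in control cells, those of Mrc1, Olr1 and Cx3cr1 were lost without macrophage replicate 3 (adjusted p = 0.256, 0.119 and 0.191) and without granulocyte replicate 1 or 2, and that of Msr1 without granulocyte replicate 1 (adjusted p = 0.059). The count of genes called in control cells was 2 without macrophage replicate 3, 1 without granulocyte replicate 1, 2 without granulocyte replicate 2 and 7 without granulocyte replicate 3. The call of Mrc1 was also lost after scaling (0.69, adjusted p = 0.117).

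The KO effect differed between the courses at day 7 for 3 of the 7 genes, with a positive macrophage minus granulocyte difference in each, beside 1.84% positive and 2.45% negative among all genes. These were Marco, Stab1 and Msr1 (1.22, adjusted p = 0.033), of which Marco was lower in KO cells in both courses. Msr1 missed the threshold with its 4 groups alone (adjusted p = 0.103), without the filter (adjusted p = 0.051) and without single libraries (adjusted p up to 0.113). With replicate pairs Adgre1 (0.64, adjusted p = 0.015) and Cx3cr1 (1.72, adjusted p = 0.0038) passed as well. The interval of the difference for Mrc1, whose KO effect passed upward in both courses, was -1.21 to 0.84, and that of Olr1 was -0.76 to 1.09.

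**Figure D3:**
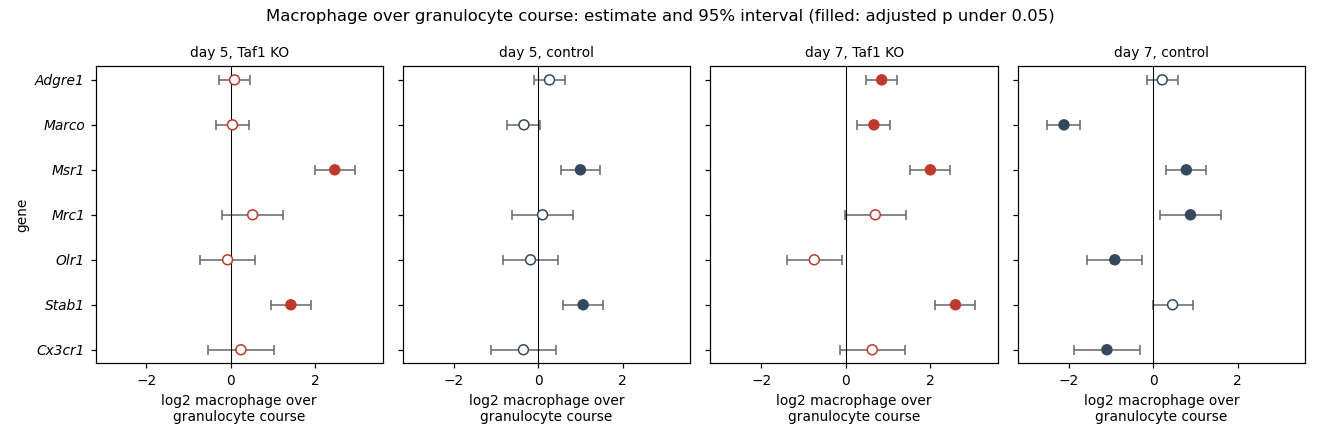
Log2 difference of the macrophage over the granulocyte course on the log2(TPM + 1) scale for the 7 genes (rows), at days 5 and 7, KO and control (panels), with points for the estimate, bars for the 95% interval and filled points for an adjusted p under 0.05. Marco lies at 0.67 in KO cells and at -2.11 in control cells at day 7, while Msr1 is right of 0 in all 4 panels.

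The order of the 12 group means differed between genes. The highest means were those of day 7 control cells of the macrophage course for Adgre1, of day 7 KO cells of the macrophage course for Msr1, Mrc1 and Stab1, of day 7 control cells of the granulocyte course for Marco and Cx3cr1, and of day 5 control cells of the granulocyte course for Olr1. Neighbours in the order mostly overlapped for Mrc1, in which the groups from the highest, at 346 TPM, down to KO cells at day 3, at 66.3 TPM, overlapped each with the next. For Msr1 the neighbours were apart in 8 of 11 steps. Over the 12 group means of log2(TPM + 1), Adgre1 was most like Msr1 among the members (Pearson's r = 0.95), followed by Mrc1 (0.92), and Olr1 ran most against Cx3cr1 (-0.72). These are descriptions over 12 points that share day 0 and day 3 libraries between courses. Among 9999 other genes whose highest group mean was at least 5 TPM, the most alike were Lgmn, Arl8a and Id2 for Adgre1 (r from 0.99), Capns1, Lrp1 and Grn for Msr1 (0.98), Cd53, Cast and Bcl2a1b for Mrc1 (0.98 to 0.99) and Jag1, Large and AI607873 for Stab1 (0.98 to 0.99). For Marco they were Fabp7, Ifitm3 and Eef1a2 (0.91 to 0.96), for Olr1 Pex16, Cd69 and Chd7 (0.87 to 0.93) and for Cx3cr1 Fam49a, Slc9a7 and Sesn1 (0.90 to 0.92).

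Of 16 other scavenger receptor genes, 7 passed the filter and 9 stayed at low values, among them Cd163, the haemoglobin receptor, which did not pass 0.67 TPM. In KO cells 1 of the 7 was lower at day 0, 4 at day 3, 3 at day 5 of the macrophage course and 5 at day 5 of the granulocyte course (4 after scaling), and 0 were higher at these stages (1 after scaling at day 5 of the macrophage course). Among all genes tested, the shares lower at these stages were 10.2%, 26.7%, 37.9% and 22.8% (14.8%, 31%, 19.7% and 22.2% after scaling). Those higher were 13.1%, 26.5%, 5.11% and 9.2%. At day 7, 3 were higher and 2 lower in the macrophage course, beside 27.4% and 12.5% of all genes (18.6% and 21.5% after scaling). In the granulocyte course 2 were higher and 5 lower, beside 32.1% and 12% (20.4% and 24.6% after scaling). Cd36, the receptor of fatty acids and oxidised lipoprotein, had 1978, 1831 and 1990 TPM in KO libraries at day 7 of the macrophage course, against 841.21, 812.56 and 866.05 TPM in control libraries. The groups were far apart, and Cd36 was higher in KO cells by 1.20 (SE 0.26, adjusted p = 0.0012). Lrp1, the large endocytic receptor of the low-density lipoprotein receptor family, had 4.52, 2.84 and 3.10 TPM in KO libraries at day 3, against 21.7, 14.6 and 15.4 TPM in control libraries. Lrp1 was lower in KO cells at day 3 by -2.02 (SE 0.18, adjusted p = 4.4e-08), beside Scarf1 (-1.34), Cd68 (-1.69) and Cxcl16 (-1.18). Scarf1, a receptor of modified lipoproteins, was lower in KO cells at all 6 stages.

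The 21 other macrophage genes had 18 members that passed the filter. At day 0, 3 were higher in KO cells and 0 lower (2 and 0 after scaling). These were Lyz2, which encodes lysozyme (1.61, adjusted p = 0.00034), Sirpa, an inhibitory receptor (0.75, adjusted p = 0.00066), and Csf1r, the receptor of M-CSF (0.41, adjusted p = 0.011). At day 3, 13 were lower and 0 higher, with Csf1r (-1.23, adjusted p = 3.63e-08), the transcription factor gene Maf (-1.38, adjusted p = 2.33e-08) and the complement gene C1qa (-3.01, adjusted p = 6e-08) among those with the smallest p. At day 5, 11 were lower and 1 higher in the macrophage course (8 and 2 after scaling), and 13 lower and 0 higher in the granulocyte course. At day 7, 5 were higher and 4 lower in the macrophage course (3 and 4 after scaling). Mertk, a receptor that takes up dying cells (1.30, adjusted p = 1.01e-05), was higher there, and Folr2 (-2.00, adjusted p = 1.51e-09) and Cd5l (-0.94, adjusted p = 0.00012) lower. At day 7 of the granulocyte course 11 were lower and 2 higher (12 and 1 after scaling), led by Adgre4 (-2.83, adjusted p = 2.05e-12), Folr2 (-2.39, adjusted p = 2.81e-11), the Fc receptor gene Fcgr1 (-2.85, adjusted p = 3.34e-07) and Csf1r (-0.96, adjusted p = 4.75e-06). The shares of all genes called at each stage stand above.

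Markers of other cell types also differed by genotype. Among all genes tested, 10.2% were lower and 13.1% higher in KO cells at day 0, and 26.7% and 26.5% at day 3. The shares were 37.9% lower and 5.11% higher at day 5 of the macrophage course, and 12.5% and 27.4% at day 7. In the granulocyte course they were 22.8% and 9.2% at day 5, and 12% and 32.1% at day 7. At day 3, megakaryocyte markers were lower in KO cells in 7 of 7 tested (median log2 difference -2.37), eosinophil markers in 4 of 5 and erythroid markers in 5 of 5, and none of these was higher. The megakaryocyte markers summed to 283.6 to 623.2 TPM in KO and 1386 to 2397 TPM in control libraries at day 3, and the eosinophil markers to 783.3 to 972.2 TPM in KO and 2578 to 3447 TPM in control libraries. At day 0, 4 of 5 eosinophil and 4 of 5 erythroid markers were lower in KO cells. By day 5 of the macrophage course 5 of 7 megakaryocyte markers (3 after scaling) and 3 of 5 eosinophil markers were lower, and 6 of 7 dendritic cell markers higher and 1 lower. The granulocyte course at day 5 had 4 of 7 megakaryocyte, 3 of 4 eosinophil and 4 of 5 erythroid markers (3 after scaling) lower, and 4 of 7 dendritic cell markers higher and 1 lower. By day 7 of that course 5 of 7 megakaryocyte markers were higher and 0 lower, and 5 of 8 progenitor markers higher and 1 lower. The megakaryocyte sum at day 7 was 1821 to 2263 TPM in KO and 418.2 to 442.1 TPM in control libraries of the macrophage course, where 2 of the 7 passed higher and 1 lower, with Pf4 as the largest term. Of 14 neutrophil markers, 2 were higher and 6 lower in KO cells at day 7 of either course, and the 1 lymphoid marker tested was lower at all 6 stages. Of 10 dendritic cell markers 7 were tested, and 5 were higher in KO cells and 0 lower at day 7 of either course, with Ccl17, Ccl22 and Ccr7 among the 3 smallest p in both. The 10 summed to 34.9 to 79.5 TPM in KO and 9.18 to 15.9 TPM in control libraries of the macrophage course, and to 43.1 to 224 TPM in KO and 17.7 to 27.0 TPM in control libraries of the granulocyte course at day 7. Xcr1, a marker of cross-presenting dendritic cells, was listed at 0 in 10 of 36 libraries and did not pass 0.27 TPM. Of 8 mast cell and basophil markers, 4 were higher and 0 lower in KO cells at day 7 of the macrophage course, and 5 higher and 0 lower in the granulocyte course (5 and 1 after scaling). They summed to 316.6 to 684.8 TPM in KO and 78.9 to 525.0 TPM in control libraries of the macrophage course, and to 1975 to 6204 TPM in KO and 1709 to 2232 TPM in control libraries of the granulocyte course. Of 8 monocyte markers, 4 were lower and 0 higher in KO cells at day 7 of the macrophage course (5 lower after scaling), and 4 lower and 1 higher in the granulocyte course (5 and 1 after scaling). Their sum was 4708 to 10620 TPM in KO and 2625 to 5800 TPM in control libraries of the macrophage course, and 19600 to 27290 TPM in KO and 6281 to 9225 TPM in control libraries of the granulocyte course, with Chil3 the largest term. F13a1, Ly6c2 and Ccr2, genes of inflammatory monocytes, were lower in KO cells in both courses, F13a1 by -4.60 (adjusted p = 5.89e-06) in the macrophage course. The part of these cells in the results of the 7 genes was not tested.

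**Figure D4:**
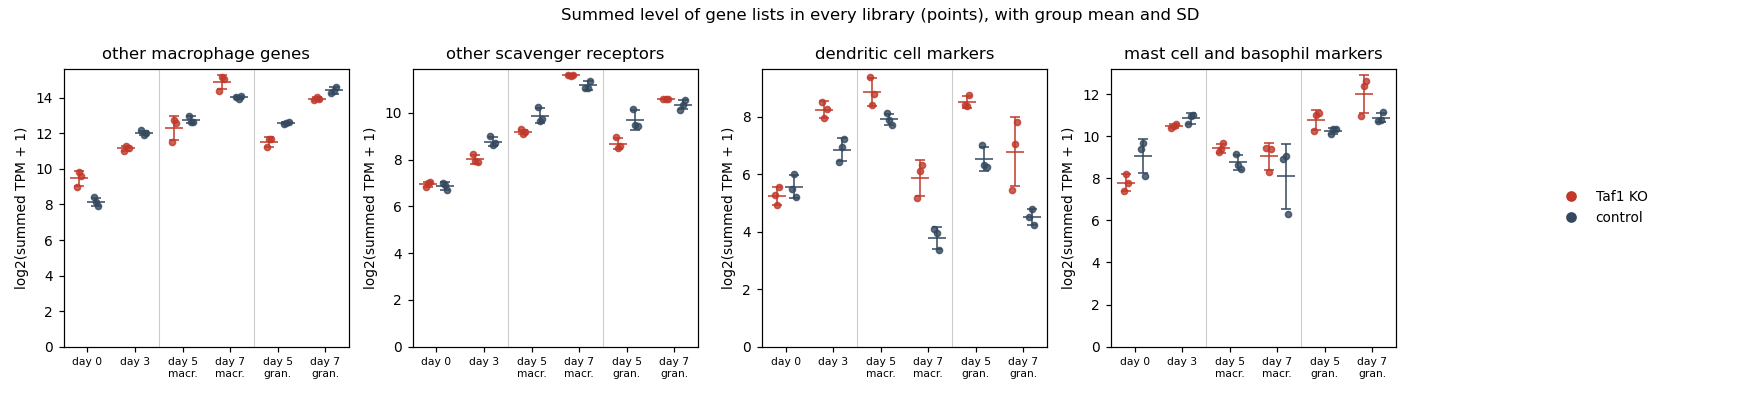
Summed level of 4 gene lists in every library as log2(summed TPM + 1) (points), by stage, KO (red) left of control (dark), with the mean and SD of the 3 libraries of a group. Dendritic cell markers sum to 34.9 to 79.5 TPM in KO and 9.18 to 15.9 TPM in control libraries at day 7 of the macrophage course, and the other macrophage genes are lower in KO than in control libraries at day 3.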

How the data were processed

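RNA-seq of total RNA was measured in 36 libraries, 12 groups of 3. The authors deposited TPM per gene, in 1 table for each course, and the 12 day 0 and day 3 columns stand in both. The submitters' processing notes name RSEM, DESeq2 1.38.3 and mm10, and the labels' protocols a stranded kit. The counts behind the TPM are not used here, so depth is unknown and no interval for counting error was given.

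Each course was fitted with its 24 libraries, the day 5 and day 7 libraries of both courses together for lineage, with limma 3.58.1 in R 4.3.3 on log2(TPM + 1). The model had 1 coefficient per group and a variance trend. Genes had to reach 1 TPM in at least 3 libraries of the fit, and p-values were adjusted by Benjamini-Hochberg over all genes kept, with 0.05 as threshold, in 25 comparisons. The fit was tested on simulated data. Lineage columns come from 2 deposited tables, whose shared columns hold the same values.

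Alternatives were pseudocounts of 0.1 and 5 TPM, other filters, median-of-ratios scaling, other sets of libraries in the fit, a replicate block, and each library left out. Same-numbered libraries deviated together in all 4 lineage pairs of groups (lowest correlation 0.317) and, between genotypes, at day 5 of the macrophage course (lowest 0.186), by a rule of over 0.1 in every pair. They did also in the KO day steps after day 3 (lowest 0.179), and not in the other comparisons. The rule did not ask that differently numbered libraries correlate less. In control lineage pairs these reached 0.680 at day 5 and 0.4885 at day 7, above the lowest same-numbered values, 0.504 and 0.317. In KO lineage pairs they stayed below, at 0.325 against 0.335 and 0.3535 against 0.367. In the KO day steps they were below only at day 5 of the macrophage course over day 3.

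The members and lists were chosen with earlier results of these data known. Named are all members, Taf1, for each member the 3 genes most alike, and up to 4 genes with the smallest p from each list described. Cd163, Chil3, Pf4, Xcr1, Lyz2, S100a8 and S100a9 levels and the endothelial markers fall outside this rule and were named after their values were seen. The values of 1 gene of the macrophage list are not reported here, though the list's counts and sums include it.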

Additional observations from a re-analysis of the deposited data

Results flagged for a closer look

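These are differences of the KO effect between stages or courses that passed limma's test across all genes, on the log2(TPM + 1) scale. Their effects share the day 3 or day 7 libraries. The KO effect at day 3 minus that at day 0 was -1.22 for Adgre1, -2.74 for Msr1, -2.14 for Mrc1, -0.67 for Stab1 and 1.45 for Cx3cr1. At day 7 of the macrophage course minus day 3 it was 2.13 for Adgre1, 3.18 for Msr1, 3.11 for Mrc1, 1.03 for Olr1 and 1.54 for Stab1. At day 7 of the granulocyte course minus day 3 it was 1.49 for Adgre1, -3.09 for Marco, 1.957 for Msr1, 3.29 for Mrc1 and -1.81 for Cx3cr1. At day 7 the macrophage minus the granulocyte course gave 2.78 for Marco, 1.22 for Msr1 and 2.14 for Stab1. The terms against day 0 for Msr1, Mrc1 and Stab1 rest on day 0 levels under 1 TPM, where this scale holds differences near 0. In the same way, the terms that involve day 3 for Marco and Cx3cr1 rest on day 3 levels under 1 TPM. With 3 libraries in a group, single libraries were not tested as outliers.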

How the results depend on the processing

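Of the 42 KO over control results of single genes, 42 kept direction and call with all 36 libraries in 1 fit, 42 with no filter, 41 with the replicate block, 41 with a pseudocount of 5 TPM, 38 with one of 0.1 TPM and 40 after scaling. Of 252 such results with 1 library left out, 238 kept both, 7 turned direction, 4 gained a call and 3 lost it. The cause of these changes was not tested.

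After scaling, Olr1 turned to 0.0087 for KO over control at day 5 of the macrophage course, to 0.288 for day 5 of that course over day 3 in KO cells, and to 0.0955 for the macrophage over the granulocyte course in KO cells at day 5. With a pseudocount of 0.1 TPM the change of the KO effect between day 3 and day 7 of the macrophage course turned to 0.33 for Marco and 0.60 for Cx3cr1. With a pseudocount of 5 TPM the course difference of the KO effect at day 7 turned to -0.062 for Olr1. None of these passed the test as reported.

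Of the 7 genes, 3 were called for day 3 over day 0 in KO cells with a pseudocount of 5 TPM, and 1 for the courses in control cells at day 5. With only the groups compared in the fit, 3 were called for the courses in control cells at day 7. For the course difference of the KO effect at day 5, 1 was called, against 0 as reported, with a pseudocount of 0.1 TPM, after scaling, with only those groups, with all 36 libraries and with the replicate block. With the replicate block 7 were called for the courses in KO cells at day 7, and 5 for the course difference of the KO effect at day 7. In genotype comparisons and KO day steps where numbers pair the samples by the rule above, the block changed no call of the 7 genes. Over all genes, the block moved the calls for the courses at day 5 to 5435 in KO cells (2090 without it) and to 1679 in control cells (348 without it), and for the course difference of the KO effect to 485 at day 5 (29 without it) and 2226 at day 7 (495 without it). With only the groups compared in the fit, the calls over all genes were 2493 (3806 as reported) for KO over control at day 5 of the granulocyte course, and for the courses at day 5 they were 3980 in KO cells and 158 in control cells. The course difference of the KO effect at day 5 had 16 calls with a pseudocount of 0.1 TPM, 54 with one of 5 TPM, 104 with no filter, 6 with a filter at 5 TPM, 82 after scaling, 51 with all 36 libraries, and between 4 and 111 with 1 library left out. At day 7 it had 285 with a filter at 5 TPM and between 279 and 928 with 1 library left out. Leaving out 1 library gave as few as 191 calls for the courses at day 5 in control cells and 1140 in KO cells.

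With 1 library left out, the genes called ranged between 0 and 2 for the courses in control cells at day 5, 1 and 7 at day 7, and 0 and 1 for the course difference of the KO effect at day 5. Directions turned in these ranges of KO over control, Adgre1 -0.14 to 0.10 and Cx3cr1 -1.04 to 0.0824 at day 7 and Stab1 -0.0902 to 0.126 at day 5 of the macrophage course, Olr1 -0.51 to 0.0145 at day 5 of the granulocyte course, and Stab1 -0.065 to 0.0085 at day 0. For day steps the ranges were -0.125 to 0.0266 for Cx3cr1 in control cells at day 5 of the macrophage course over day 3, and in KO cells -0.046 to 0.071 for Olr1 in the same step, -0.21 to 0.54 for Mrc1 and -0.071 to 0.25 for Olr1 at day 5 of the granulocyte course over day 3, and -0.035 to 0.41 for Olr1 at day 7 over day 5 of that course. For the courses at day 5 they were -0.032 to 0.12 for Marco and -0.25 to 0.066 for Olr1 in KO cells, and -0.0302 to 0.356 for Mrc1 and -0.37 to 0.15 for Olr1 in control cells. The KO effect ranged for Cx3cr1 between -0.77 and 0.35 for day 7 of the macrophage course minus day 3, and between courses for Olr1 between -0.23 and 0.29 at day 5 and -0.14 and 0.54 at day 7, and for Mrc1 between -0.46 and 0.15 at day 7. Depth behind the TPM is unknown, and low genes such as Marco before day 5 rest on values near 0.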
